A study of Rattus norvegicus with 16 samples.

Results

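The Achilles tendon of the rat was set against every other tendon of the series: 4 Achilles libraries of the 16 sequenced, against 12 libraries of the other tendons. The tissues were the Achilles tendon, the flexor tendons of the forepaw, the patellar tendon and the shoulder's supraspinatus tendon, each with 4 libraries of total RNA from untreated Sprague Dawley rats as far as the labels say. The labels give no age, sex or genotype beyond the strain, and they do not say that the libraries of a tendon came from separate animals. P-values therefore measure the spread between these samples, which may in part be technical. The deposited table holds whole-number counts for 23285 genes, and the totals were 85403509 to 102491699 in the Achilles libraries and 63397591 to 102130759 in the other 12. A level is given in CPM, the counts of a gene relative to the library total after TMM scaling, which corrects totals for differences in composition between libraries. Of the 23285 genes, 16948 passed the filter on low counts and were tested.

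The Achilles tendon joins the calf muscles to the heel bone and stores elastic energy during walking. Its insertion holds fibrocartilage, and fat, nerve and muscle lie close enough to enter a dissected sample. The transcription factor Isl1 acts upstream of hindlimb outgrowth in the mouse embryo, Tbx4 and Pitx1 are the factors known for the hindlimb, Tbx5 is the factor known for the forelimb, and posterior HOX genes give position along the body and limb. Matrix metalloproteinases cut collagen, proteoglycans and other matrix proteins, and TIMPs inhibit them.

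Achilles 1 stood apart from the other Achilles libraries. Over the genes that varied most across the libraries, its nearest library was patellar 3. On these genes each of the other 15 libraries lay nearest to a library of its own tendon. Markers of Schwann cells and nerve made up 0.933% of the counts in Achilles 1 and 0.154, 0.165 and 0.127% in Achilles 2 to 4, against 0.259 to 0.437% in flexor, 0.0940 to 0.178% in patellar and 0.0570 to 0.0844% in supraspinatus libraries. Fast muscle markers made up 0.0235, 0.178, 0.0495 and 0.156% in Achilles 1 to 4, against 0.839 to 3.34% in flexor, 0.0147 to 2.27% in patellar and 5.64 to 8.64% in supraspinatus libraries. Counts over all genes and over most gene lists are therefore given also without it. In bulk tissue, fewer cells of a type and less RNA per cell cannot be told apart.

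In 239 genes all 4 Achilles libraries lay above all 12 others, which is 1.41% of the genes tested, and in 91 genes all 4 lay below, which is 0.537%. With CPM of plain library totals the counts were 321 above (1.89%) and 44 below (0.26%), and 199 and 41 genes were separated on both scales. With Achilles 2 to 4 alone, 486 genes lay above (2.87%) and 74 below (0.437%) with plain totals. On the TMM scale 369 genes lay above (2.18%) and 167 below (0.985%). These TMM counts included all 239 and all 91, which the rule itself fixes. Leaving out any 1 Achilles library relaxes the rule in the same way: without Achilles 2, 3 or 4, 273, 316 and 458 genes lay above and 133, 113 and 204 below. Achilles 4 thus withheld more genes from the count than Achilles 1 did. By the same rule the flexor libraries were separated in 1841 genes above and 1032 below, the supraspinatus libraries in 2264 and 988, and the patellar libraries in 456 and 346, so the Achilles had the smallest number in both directions. Most separated genes differed little from the nearest tendon: the median log2 difference in size was 0.43 in either direction, and 42 genes above and 12 below differed at least 2-fold from it.

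**Figure D1:**
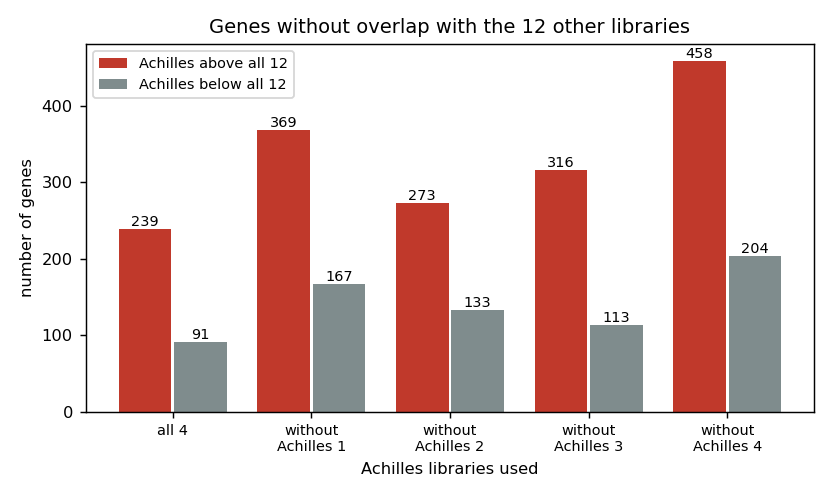
Number of genes (vertical axis) in which the Achilles libraries used (horizontal axis) all lay above (red) or all below (grey) the 12 other libraries in TMM-scaled CPM. The counts were 239 and 91 with all 4 Achilles libraries, and the largest were 458 and 204, without Achilles 4.

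At the edge of the rule, Snrpa and Arhgdia were just inside and Yif1a and Zfp655 just outside among genes above. The lowest Achilles library had 23.75 CPM of Snrpa against 23.74 CPM in the highest other library, and 89.14 CPM of Yif1a against 89.17 CPM. Among genes below, Ddx6 was just inside and Zbtb39 and Huwe1 just outside. The highest Achilles library had 13.85 CPM of Ddx6 against 13.86 CPM in the lowest other library.

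The test was edgeR's quasi-likelihood fit to all 16 libraries with Benjamini-Hochberg adjusted p under 0.05, and fold changes are log2 differences ± SE. Against the mean of the 3 other tendons, 3134 genes were higher in the Achilles (18.5%) and 2912 lower (17.2%), so that 51.8% of the called genes were higher. With plain library totals, which shift the median of all genes by 0.16 on the log2 scale, 73.1% were higher. The 3 pairs were unequal: 3987 genes were higher (23.5%) and 4089 lower (24.1%) than in flexor, 4312 (25.4%) and 4185 (24.7%) than in supraspinatus, and 525 (3.1%) and 349 (2.06%) than in patellar tendon. Without Achilles 1, 2347 genes were higher (13.7%) and 2133 lower (12.4%) than the mean. In the pairs they then numbered 3594 (21%) and 3811 (22.2%) against flexor, 4151 (24.2%) and 4133 (24.1%) against supraspinatus, and 522 (3.04%) and 365 (2.13%) against patellar tendon. These comparisons share the Achilles libraries. In all 3 pairs together, 131 genes were higher (0.773%) and 40 lower (0.236%), or 120 (0.7%) and 31 (0.181%) without Achilles 1. Those separated from all 12 libraries made up 107 of the 131 and 29 of the 40. The separated genes were chosen from the levels that the fit tests, so their p-values are given as a description. The calls in all 3 pairs depended on single libraries: they numbered 61, 71, 66, 59 and 86 higher without Achilles 2, Achilles 3, patellar 2, patellar 3 or patellar 4, and 11, 13, 24, 17 and 21 lower without the same libraries, 62 lower without patellar 1 and 26 lower without supraspinatus 1.

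**Figure D2:**
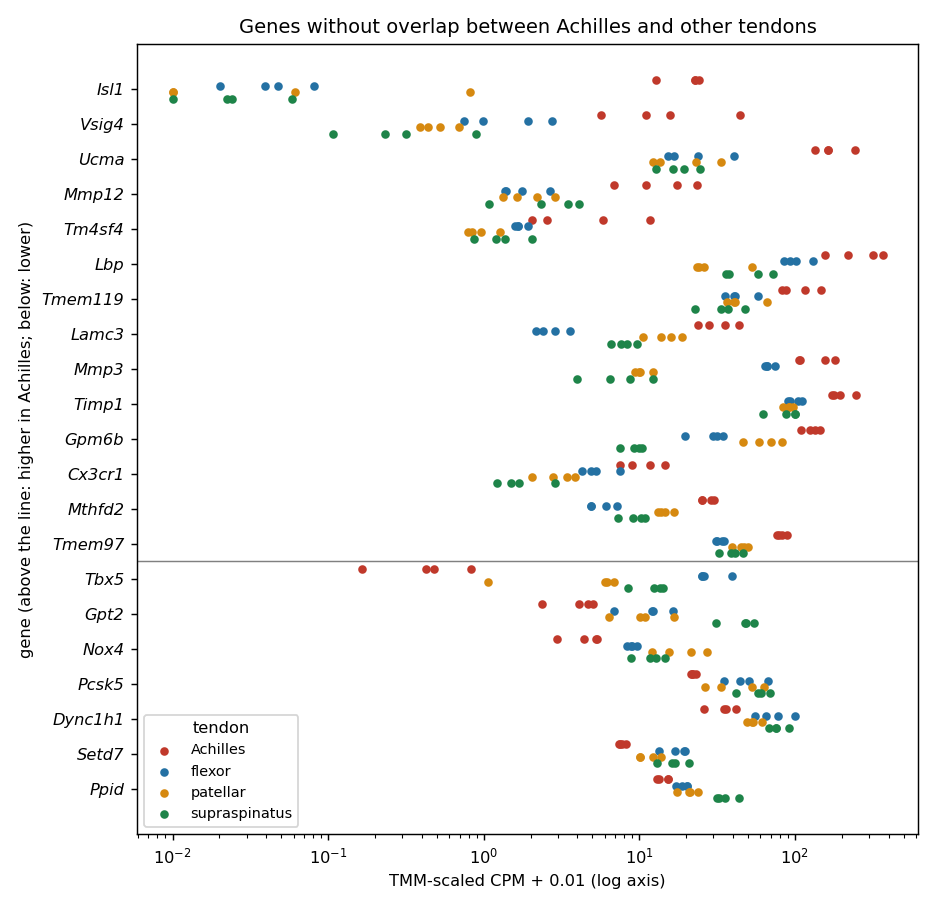
TMM-scaled CPM plus 0.01 on a log axis (horizontal) for 21 genes (vertical) that differed most from the nearest tendon among those separated and called in all 3 pairs. Each point is 1 library, coloured by tendon. Above the line all Achilles points lie to the right of the other 12, with Isl1 at 12.8 CPM or more. Below it they lie to the left, with Tbx5 at 0.817 CPM or less.

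The gene with the largest separation was Isl1 (ENSRNOG00000012556). It had 12.8, 23.0, 22.8 and 24.4 CPM in Achilles 1 to 4, against 0.0103 to 0.0706 CPM in flexor, 0, 0.808, 0 and 0.0509 CPM in patellar and 0 to 0.0485 CPM in supraspinatus libraries. In counts this was 1442 to 2258 per Achilles library, against 57 in patellar 2 and at most 7 in any of the 11 others. Achilles 1 was the lowest of the 4 and still far above the highest other library, patellar 2. The adjusted p was 2.3e-06 against the mean and 0.0029 against the patellar tendon. The order was Achilles, patellar, flexor and supraspinatus, in which the last 3 overlapped.

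Hoxc11 (ENSRNOG00000016141), a posterior HOX gene, had 2.59, 2.57, 2.66 and 2.96 CPM in the Achilles, against 0.426, 0.383, 0.317 and 0.242 CPM in the patellar tendon and at most 0.0162 CPM in any flexor or supraspinatus library. Of 39 HOX symbols searched, 28 were found in the count table and 23 were tested. Hoxc11 was the only one of the 23 called against each tendon, with a log2 difference from patellar of 2.97 ± 0.37 (adjusted p = 0.00072). Its neighbour in the cluster, Hoxc10, had 9.95 to 14.4 CPM in the Achilles and 13.95 to 16.7 CPM in the patellar tendon, a difference of -0.33 ± 0.23 (adjusted p = 0.41), against at most 0.0558 CPM in flexor and supraspinatus libraries. Of 23 HOX genes tested, 7 were higher and 2 lower than the mean of the other tendons, with a median of 0.18. All genes tested had a median of -0.01, with 18.5% higher and 17.2% lower. Without Achilles 1, 8 HOX genes were higher and 1 lower.

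Tbx5 (ENSRNOG00000001399) had 0.416, 0.466, 0.817 and 0.156 CPM in the Achilles, against 25.3 to 39.4 CPM in flexor, 1.06, 6.86, 6.05 and 6.16 CPM in patellar and 8.41 to 14.2 CPM in supraspinatus libraries. Only patellar 1 came near the Achilles range. The log2 difference was -3.43 ± 0.52 from patellar (adjusted p = 0.0033) and -4.70 ± 0.52 from the mean (adjusted p = 2.5e-05). Lhx9 and Emx2, transcription factors of the early limb bud and other organs, were also below all 12 libraries. Lhx9 had 0.0621 to 0.345 CPM in the Achilles, against 0.434 to 0.711 CPM in flexor, 5.21 to 6.53 CPM in patellar and 1.36 to 2.39 CPM in supraspinatus libraries. Emx2 had 0.302 to 1.01 CPM in the Achilles, against 1.58 to 2.51, 4.85 to 11.1 and 2.97 to 3.52 CPM in the other tendons in the same order. Both were called against each tendon, and the smallest of their 3 differences was that from flexor, -1.74 for Lhx9 and -1.42 for Emx2. Osr2, a factor of joint and tendon development in the mouse, had 8.88, 5.34, 4.99 and 3.67 CPM in the Achilles against 7.88 to 43.0 CPM in the other 12. It was called against each tendon, but Achilles 1 overlapped supraspinatus 4.

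The hindlimb factors were not particular to the Achilles. Tbx4 had 6.43, 15.3, 15.1 and 31.6 CPM in the Achilles, against 24.2 to 45.8 CPM in flexor, 3.70 to 14.6 CPM in patellar and 0.956 to 1.18 CPM in supraspinatus libraries. Its difference from the mean was 1.35 ± 0.33 (adjusted p = 0.0066), and the call was lost without Achilles 4 (0.87, adjusted p = 0.052). Pitx1 had 3.90, 14.1, 18.5 and 35.5 CPM in the Achilles, against 0.413 to 0.963 CPM in flexor, 6.04 to 23.1 CPM in patellar and 7.78 to 17.5 CPM in supraspinatus libraries. It was 1.92 ± 0.40 above the mean (adjusted p = 0.0021) and, among the pairs, was called against flexor alone. Hand2, a factor of the posterior limb bud, had 1.71 to 4.53 CPM in the Achilles, below the 5.62 to 7.54 CPM of flexor and above the 0.0608 to 0.216 CPM of patellar and 0.0419 to 0.196 CPM of supraspinatus libraries. Of 42 limb patterning factors outside the HOX clusters, 8 were higher and 11 lower than the mean, with a median of -0.21, where 18.5% and 17.2% of all genes were higher and lower. Isl1 was the only one higher than each tendon, and Tbx5, Lhx9, Emx2 and Osr2 were lower than each. Without Achilles 1 the counts against the mean were 7 and 8.

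**Figure D3:**
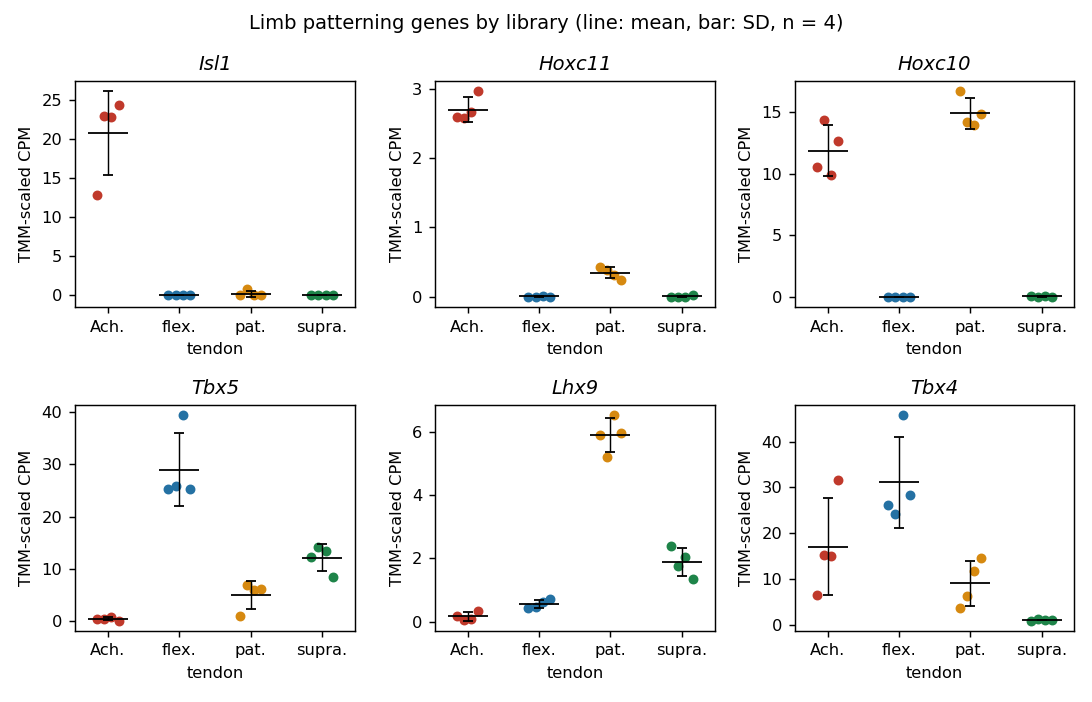
TMM-scaled CPM (vertical axes) of 6 limb patterning genes in the 4 libraries of each tendon (horizontal axes; Achilles, flexor, patellar, supraspinatus), with the mean as a line and the SD as a bar. Isl1 and Hoxc11 are highest in the Achilles, Hoxc10 is shared with the patellar tendon, Tbx5 and Lhx9 are lowest in the Achilles, and Tbx4 overlaps with flexor and patellar libraries.

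Ucma, a secreted protein of cartilage cells rich in modified glutamate, had 136, 164, 164 and 243 CPM in the Achilles (ENSRNOG00000017987). The other libraries had 15.4 to 40.3 CPM in flexor, 12.2 to 33.5 CPM in patellar and 12.8 to 24.5 CPM in supraspinatus tendon. All Achilles libraries were at least 3 times the highest other one. The difference from the mean was 3.08 ± 0.26 (adjusted p = 3.4e-06). Mgp, a related inhibitor of mineral deposition, had 785 to 1054 CPM in the Achilles against 300.2 to 598 CPM in the other 12, and was 0.74 to 1.34 higher than each tendon. Of 23 chondrocyte and fibrocartilage markers tested, 4 were higher and 2 lower than the mean, where 18.5% and 17.2% of all genes were. Without Achilles 1, 3 and 2 of the markers were called. Ucma was the only one of them called against each tendon, and Mgp is not on this list. The summed share of this list overlapped fully, at 0.525 to 1.34% in the Achilles against 0.284 to 1.68% in the other 12.

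Bglap, the osteocalcin gene of bone-forming cells, had 0.337, 9.28, 14.03 and 0.690 CPM in Achilles 1 to 4, against 0.0485 to 0.395 CPM in the other 12 libraries. Achilles 2 and 3 were far above the rest, Achilles 4 was just above and Achilles 1 fell within their range, although on plain library totals all 4 exceeded the other 12. It was called against each tendon with Achilles 1 (largest adjusted p of the 3 pairs 0.013) and without it (0.0026). Of 13 osteoblast and osteocyte markers, 4 were higher than the mean, where 18.5% of all genes were. The markers' summed share was 0.0135 to 0.0250% in the Achilles against 0.00690 to 0.0573% in the other 12.

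Of 57 matrix proteases, inhibitors and crosslinking enzymes tested, 20 were higher and 4 lower than the mean and 33 were not called. The shares over all genes were 18.5% higher and 17.2% lower. The list's median was 0.30. Without Achilles 1 the list's counts were 18 and 3, and with plain library totals 26 and 3. Against the patellar tendon 6 of the list were higher and 1 lower, where 3.1% and 2.06% of all genes were. The list's median in that pair was -0.007, and without Achilles 1 the counts were 7 and 1. Mmp3, Mmp12 and Timp1 were the members higher than each tendon. Mmp10, described beside them, is not on the list and was chosen after its values were seen. Mmp3 (stromelysin 1) had 109, 157, 182 and 107 CPM in the Achilles, against 64.3 to 74.1 CPM in flexor, 9.35 to 12.3 CPM in patellar and 3.98 to 12.2 CPM in supraspinatus libraries. Mmp12 (macrophage elastase) had 11.02, 23.5, 17.6 and 6.83 CPM in the Achilles against 1.08 to 4.07 CPM in the other 12. Mmp10 (stromelysin 2) had 11.2, 14.2, 17.0 and 9.37 CPM in the Achilles, against 6.21 to 8.56 CPM in flexor, 1.04 to 1.29 CPM in patellar and 0.356 to 1.38 CPM in supraspinatus libraries. In Mmp3 and Mmp10 the flexor libraries were thus well above the other 2 tendons, and the difference from flexor was the smallest, at 1.03 ± 0.26 (adjusted p = 0.0045) and 0.83 ± 0.28 (adjusted p = 0.027). The Mmp10 call against flexor was lost without Achilles 2, Achilles 3, flexor 1 or flexor 4 (adjusted p of 0.051 to 0.078). Mmp12 was 2.43 to 3.04 higher than each tendon, with an adjusted p of at most 0.0036.

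These 3 genes lie in the metalloproteinase cluster of chromosome 8, where Mmp12 and Mmp3 are neighbours and Mmp1 lies between Mmp3 and Mmp10 in the RefSeq annotation. Because they were higher together, the 250 bases before their start sites are shown, as RefSeq gives them for build GRCr8 on the plus strand. Windows of the cluster's other genes, Mmp13, Mmp1, Mmp8, Mmp27, Mmp20 and Mmp7, are not shown. A tie between the letters marked below and the levels was not tested. The capitals mark the letters TGAGTCA, the consensus known for AP-1 factors, which were searched on both strands. The windows are chr8:12925031-12925280 for Mmp3, chr8:12974457-12974706 for Mmp10 and chr8:12866402-12866651 for Mmp12.
Mmp3: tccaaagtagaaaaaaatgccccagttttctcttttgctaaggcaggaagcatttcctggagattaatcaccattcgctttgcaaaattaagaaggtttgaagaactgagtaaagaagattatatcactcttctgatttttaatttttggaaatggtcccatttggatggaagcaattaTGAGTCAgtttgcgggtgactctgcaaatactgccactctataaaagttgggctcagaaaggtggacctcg
Mmp10: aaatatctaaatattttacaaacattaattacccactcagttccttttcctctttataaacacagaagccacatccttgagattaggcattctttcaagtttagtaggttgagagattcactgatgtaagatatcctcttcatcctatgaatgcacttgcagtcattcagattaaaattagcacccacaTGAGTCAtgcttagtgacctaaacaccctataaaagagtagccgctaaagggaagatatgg
Mmp12: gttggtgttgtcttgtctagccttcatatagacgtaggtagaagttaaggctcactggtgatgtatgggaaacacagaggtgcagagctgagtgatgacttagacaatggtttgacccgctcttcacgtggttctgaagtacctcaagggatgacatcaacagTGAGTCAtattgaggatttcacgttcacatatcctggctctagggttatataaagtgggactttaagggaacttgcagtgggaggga
Each window holds the letters once, on the plus strand, ending 64, 54 and 80 bases before the start in Mmp3, Mmp10 and Mmp12. Of 33469 promoter windows of the same length in the RefSeq table, 4.05% hold them on either strand. This is a description of the letters, and binding was not measured. A link between the levels of AP-1 genes and the metalloproteinases was not tested, and only some AP-1 genes are described. Of these, Fos, Jun and Junb were lower in the Achilles than the mean of the other tendons. They were among 12 of 29 immediate early and heat shock genes that were lower by edgeR, with 13 lower without Achilles 1, where 17.2% of all genes were lower. In the pairs 19 of the 29 were lower than in flexor, 10 lower than in supraspinatus and 0 lower than in patellar tendon. The shares of all genes lower were 24.1, 24.7 and 2.06% in the same order, so the 0 is near its share. Against patellar 3 were lower at an unadjusted p under 0.05, 1 by DESeq2 and 1 by limma-voom. The number higher than the mean was 0 by edgeR, also at an unadjusted p under 0.05, and 0 by DESeq2 and limma-voom. By edgeR 18.5% of all genes were higher than the mean.

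Timp1, an inhibitor of these enzymes, was also higher in the Achilles, with 173, 179.6, 248 and 195 CPM against 62.2 to 111 CPM in the other 12 libraries. The difference was 0.996 to 1.18 from each tendon (adjusted p of at most 0.0012). Mmp23, a membrane-bound metalloproteinase, and Pcolce, an enhancer of procollagen processing, were above all 12 libraries but were not called against the patellar tendon. Mmp23 had 101 to 129 CPM in the Achilles against 54.3 to 97.2 CPM in patellar and 8.96 to 18.4 CPM in flexor and supraspinatus libraries, and the difference from patellar was 0.60 ± 0.22 (adjusted p = 0.13). Pcolce had 1363 to 1701 CPM in the Achilles against 351 to 1108 CPM in the other 12, and the difference from patellar was 0.65 ± 0.23 (adjusted p = 0.11).

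Lamc3, a laminin chain of basement membranes, had 24.0, 43.7, 27.996 and 35.6 CPM in the Achilles, against 2.15 to 3.60 CPM in flexor, 10.5 to 18.7 CPM in patellar and 6.54 to 9.65 CPM in supraspinatus libraries. Its smallest difference was 1.16 ± 0.22, from patellar (adjusted p = 0.010). Sdc1, a cell surface proteoglycan that binds growth factors, had 73.5, 201, 142 and 299 CPM in Achilles 1 to 4 against 34.5 to 92.2 CPM in the other 12. Achilles 1 lay inside their range and the other 3 above it. Sdc1 was called against each tendon with all libraries (largest adjusted p 0.040) and without Achilles 1 (0.0082). The call was lost when any of 10 of the 16 libraries was left out (0.051 to 0.0999).

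Vsig4, a complement receptor of resident macrophages, had 11.1, 15.7, 44.1 and 5.70 CPM in the Achilles, against 0.736 to 2.72 CPM in flexor, 0.382 to 0.686 CPM in patellar and 0.0971 to 0.879 CPM in supraspinatus libraries. The Achilles libraries differed widely among themselves, and the lowest, Achilles 4, still exceeded the highest flexor library. The difference from the mean was 4.83 ± 0.47 (adjusted p = 1.0e-05) and that from flexor, the nearest, 3.59 (adjusted p = 0.00059). Cx3cr1, the fractalkine receptor of monocytes and some macrophages, had 8.93, 11.8, 14.6 and 7.52 CPM in the Achilles against 1.21 to 7.499 CPM in the other 12. Achilles 4 and flexor 3 were almost equal, and the difference from flexor was 0.97 (adjusted p = 0.013). Vsig4 was called against each tendon as well and is not on the list of macrophage and monocyte markers. Of the 14 on that list that were tested, 4 were higher than the mean, where 18.5% of all genes were. The list's median was 0.33, and Cx3cr1 was the only member called against each tendon. Without Achilles 1, 2 were higher. Their summed share was 0.141 to 0.275% in the Achilles against 0.0666 to 0.251% in the other 12, and its part in the Vsig4 result was not tested.

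Lbp, a secreted protein that binds bacterial lipopolysaccharide, had 219, 155, 318 and 368 CPM in the Achilles, against 85.6 to 131 CPM in flexor, 23.5 to 53.2 CPM in patellar and 36.2 to 72.4 CPM in supraspinatus libraries. It was 1.37 higher than in flexor (adjusted p = 0.0031) and 3.06 ± 0.34 higher than in patellar tendon (adjusted p = 0.00034). Tmem119, a membrane protein of bone-forming cells and of microglia in the mouse, had 83.2 to 146 CPM in the Achilles against 22.8 to 65.8 CPM in the other 12, a difference of 1.23 to 1.61 from each tendon.

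Several genes of signalling and metabolism were separated as well. Lgr5, a receptor for R-spondins that raises Wnt signalling, had 3.23, 2.37, 1.73 and 1.51 CPM in the Achilles, against 0.204 to 1.05 CPM in flexor, 0.243 to 0.871 CPM in patellar and 0.0255 to 0.0981 CPM in supraspinatus libraries. It was called against each tendon (largest adjusted p 0.020). The call was lost without Achilles 2, patellar 2 or patellar 4 (0.054 to 0.064). Its relative Lgr4 was not higher, with 5.74 to 7.68 CPM in the Achilles against 65.6 to 77.6 CPM in flexor and 6.46 to 9.17 CPM in patellar and supraspinatus libraries. Of 49 Wnt pathway genes tested, 6 were higher and 11 lower than the mean, with a median of -0.11, where 18.5% and 17.2% of all genes were higher and lower. Without Achilles 1, 4 were higher and 11 lower. Lgr5 was the only one called against each tendon.

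Aldh1a2, which makes retinoic acid, had 37.8, 50.2, 47.0 and 28.4 CPM in the Achilles, against 21.4 to 27.1 CPM in flexor, 9.10 to 16.6 CPM in patellar and 3.26 to 8.16 CPM in supraspinatus libraries. Achilles 4 and flexor 2 were close. The call against flexor (0.75, adjusted p = 0.027) was lost without Achilles 2, Achilles 3, flexor 1 or flexor 3 (0.051 to 0.068). Crabp1, a retinoic acid binding protein of the cytoplasm, had 34.2, 126, 87.7 and 147 CPM in the Achilles against 39.6 to 65.4 CPM in patellar and 9.17 to 24.7 CPM in flexor and supraspinatus libraries. Achilles 2 to 4 were above all 12 and Achilles 1 below the 4 patellar libraries. Of 19 genes of the retinoic acid pathway, 3 were higher and 3 lower than the mean, where 18.5% and 17.2% of all genes were. The pathway's counts were the same without Achilles 1.

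Gpm6b, a membrane protein of the proteolipid family, had 110.1 to 144 CPM in the Achilles, against 19.6 to 34.4 CPM in flexor, 46.2 to 83.2 CPM in patellar and 7.51 to 10.5 CPM in supraspinatus libraries. Mthfd2, a mitochondrial enzyme of folate metabolism, had 25.2 to 30.3 CPM in the Achilles, against 13.2 to 16.8 CPM in patellar and 4.91 to 10.8 CPM in flexor and supraspinatus libraries. Tmem97, the sigma-2 receptor, which takes part in cholesterol handling, had 76.8 to 89.4 CPM in the Achilles against 31.3 to 50.2 CPM in the other 12. The 4 Achilles libraries were within a narrow range in all 3 genes, and the smallest pair difference was 0.99 for Gpm6b, 0.92 for Mthfd2 and 0.85 for Tmem97, each from patellar tendon (adjusted p of 0.010, 0.0043 and 0.00064). Tm4sf4, a tetraspanin-like membrane protein, had 11.7, 2.54, 5.87 and 2.05 CPM in the Achilles against 0.779 to 2.02 CPM in the other 12. Achilles 4 barely cleared supraspinatus 3. Of the 14 genes with the largest nearest-tendon difference, 14 kept the call against each tendon when any 1 library was left out. They were chosen from these same libraries for that call and for a large difference, so this is no separate check. With the level of muscle markers as a covariate the call against the mean was lost for Tm4sf4.

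Genes of DNA replication and mitosis were higher in the Achilles than in the forelimb tendons and close to the patellar tendon. Of 24 cell cycle genes tested, 23 were higher than the mean, with a median of 1.54, where 18.5% of all genes were higher. The median was 2.16 against flexor, 2.07 against supraspinatus and 0.28 against patellar. The 2 called against patellar were Mcm4 and Mcm5, subunits of the replication helicase. Mcm5 had 25.1, 39.2, 39.0 and 32.2 CPM in the Achilles, against 16.7 to 25.4 CPM in patellar and 2.93 to 5.65 CPM in flexor and supraspinatus libraries. Achilles 1 fell just below patellar 4 on the TMM scale and above it on plain totals. The call against patellar (0.77 ± 0.20, adjusted p = 0.040) was lost without any of 7 libraries (0.0502 to 0.11). Mcm4, at 29.7 to 37.9 CPM in the Achilles against 20.7 to 31.5 CPM in patellar tendon, lost it without any of 9 (0.051 to 0.11).

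Mcm2, Mcm6 and Pcna, the clamp of the replication fork, were the cell cycle genes in which all 4 Achilles libraries exceeded all 12 on the TMM scale, and with Achilles 2 to 4 there were 9. On plain totals 5 cell cycle genes did so with all 4 Achilles libraries, and Pcna was not among them. Mcm6 had 54.4 to 62.4 CPM in the Achilles against 36.7 to 47.4 CPM in patellar and 14.01 to 23.8 CPM in flexor and supraspinatus libraries, and its difference from patellar was 0.46 ± 0.14 (adjusted p = 0.080). Top2a, a topoisomerase of dividing cells, had 15.1, 29.4, 40.2 and 46.1 CPM in the Achilles, overlapping the 23.5 to 39.3 CPM of patellar and above the 1.10 to 4.07 CPM of flexor and supraspinatus libraries. Achilles 1 was the lowest of its tendon for Top2a. Without Achilles 1, 23 cell cycle genes were still higher than the mean and 3 were higher than in patellar tendon.

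**Figure D4:**
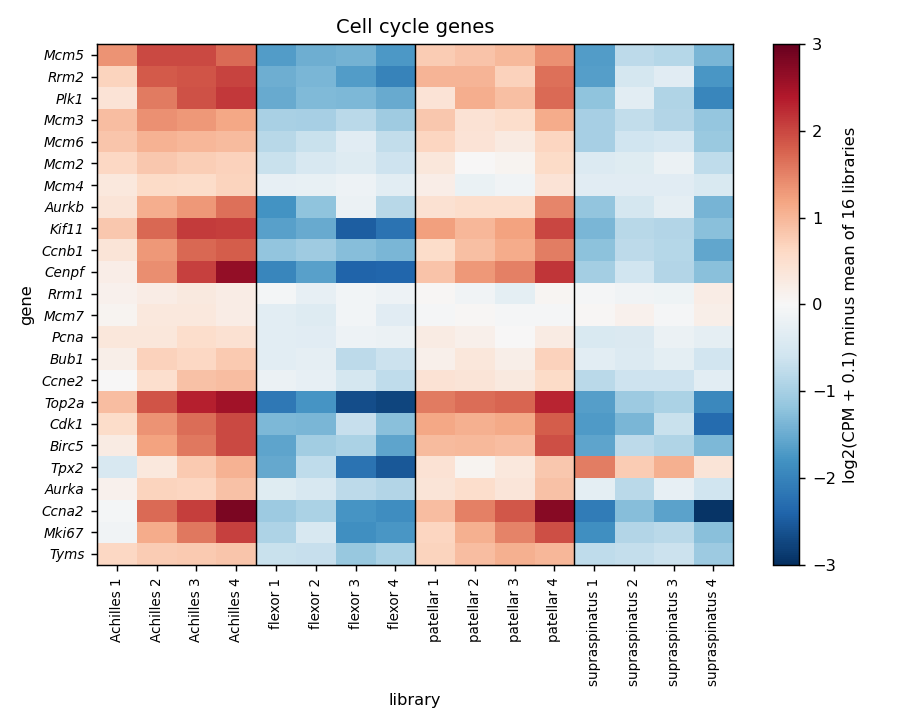
Log2 of CPM plus 0.1, minus the mean of the 16 libraries, as colour (red higher, blue lower) for the 24 cell cycle genes (vertical axis) in each library (horizontal axis). Achilles and patellar libraries are mostly red and flexor and supraspinatus libraries mostly blue, with Achilles 1 paler than Achilles 2 to 4.

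Fewer genes were low in the Achilles alone. Nox4, an oxidase that makes hydrogen peroxide, had 2.93, 5.31, 5.25 and 4.38 CPM in the Achilles, against 8.30 to 9.70 CPM in flexor, 12.1 to 27.4 CPM in patellar and 8.89 to 14.6 CPM in supraspinatus libraries. Its smallest difference was -1.005, from flexor (adjusted p = 0.0033). Gpt2, a mitochondrial alanine aminotransferase, had 2.37 to 5.02 CPM in the Achilles, against 6.84 to 16.5 CPM in flexor, 6.41 to 16.8 CPM in patellar and 31.3 to 54.7 CPM in supraspinatus libraries. Pcsk5, a convertase that cleaves precursor proteins, had 21.6 to 23.2 CPM in the Achilles against 26.6 to 69.3 CPM in the other 12. Setd7, a lysine methyltransferase, had 7.40 to 8.18 CPM in the Achilles against 10.1 to 21.0 CPM. Dync1h1, the heavy chain of cytoplasmic dynein, had 26.1 to 42.0 CPM in the Achilles against 49.2 to 99.9 CPM, and Ppid, a cyclophilin, had 13.1 to 15.3 CPM against 17.1 to 43.9 CPM.

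Of the 7 separated genes that met the rule in this direction, Tbx5 and Nox4 kept the call against each tendon when any 1 library was left out. Gpt2 lost it without Achilles 2 or patellar 3 (largest adjusted p 0.0505 to 0.0513) and Ppid without Achilles 3 or patellar 2 (0.051 to 0.054). Pcsk5 lost it without any of 6 libraries (0.062 to 0.12), each Achilles library among them, and Setd7 and Dync1h1 without any of 12 (0.0505 to 0.13). All 7 stayed lower than the mean of the other tendons when any 1 library was left out, with an adjusted p of at most 0.0056 by edgeR. These genes, too, were chosen from the same libraries for their calls.

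Skeletal muscle genes differed by fibre type. Of 12 fast fibre genes tested, 11 were lower in the Achilles than the mean, with a median of -4.34, where 17.2% of all genes were lower. In the pairs 11 were lower than in flexor, 11 lower than in supraspinatus and 3 lower than in patellar tendon. The shares of all genes lower were 24.1, 24.7 and 2.06% in the same order. Without Achilles 1, 9 of the 12 were lower than the mean. Actn3, the fast fibre actinin, had 13.98, 5.46, 3.67 and 5.05 CPM in the Achilles, against 107 to 674 CPM in flexor, 1407, 44.7, 6.48 and 199.6 CPM in patellar and 4964 to 8809 CPM in supraspinatus libraries. Pvalb, the calcium buffer parvalbumin, had 2.44 to 7.33 CPM in the Achilles, against 77.3 to 308 CPM in flexor, 4.57 to 525 CPM in patellar and 873 to 2139 CPM in supraspinatus libraries. In both genes patellar 3 lay within the Achilles range, and Achilles 1 alone kept the groups from separating. Actn3, Pvalb and Mybpc2, a fast myosin binding protein, were lower than each tendon. All lost that call without Achilles 2, and Actn3 and Mybpc2 also without Achilles 3 (0.054 to 0.065).

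Slow fibre genes were present in 3 of the 4 Achilles libraries. Myh7, the slow myosin heavy chain, had 1.33, 1601, 249.7 and 1549.7 CPM in Achilles 1 to 4, against 3.75 to 65.7 CPM in flexor, 2.21 to 15.8 CPM in patellar and 859 to 3856 CPM in supraspinatus libraries. Achilles 1 was the lowest of all 16 libraries. Myh4, a fast myosin heavy chain, had 60.5, 378, 74.4 and 254 CPM in the Achilles, against 3684 to 15366 CPM in flexor, 37.0 to 7636 CPM in patellar and 28585 to 45736 CPM in supraspinatus libraries. The ratio of Myh7 to Myh4 counts was 0.0220, 4.24, 3.36 and 6.10 in Achilles 1 to 4, against 0.00102 to 0.00428 in flexor, 0.000290 to 0.426 in patellar and 0.0282 to 0.126 in supraspinatus libraries. Achilles 2 to 4 were the only libraries with more Myh7 than Myh4 counts, and Achilles 1 lay within the range of the others. Other fast myosin genes are not part of this ratio. Myosin heavy chains are similar in sequence, and reads shared between them may be split by the counting. Myl2, a slow myosin light chain, had 0.266, 161, 37.1 and 234 CPM in the Achilles. Its difference from the mean by edgeR was 2.51 ± 0.83 (adjusted p = 0.030), lost without Achilles 2 (2.26) or Achilles 4 (1.80), where the adjusted p reached 0.14. By limma-voom it was 0.67 (adjusted p = 0.76), with the replicate block 2.05 (adjusted p = 0.14) and with the 12 other libraries as 1 group -0.17 (adjusted p = 0.96), so the size and the call depended on the method. The pairs were also unlike. In the authors' deposited edgeR table, whose samples may differ, Myl2 was 3.65 from flexor (FDR 0.0034) and 6.45 from patellar (FDR 0.0030). From supraspinatus tendon it was -1.29 in that table (FDR 0.21). With Achilles 1, 5 of 25 markers of slow or general muscle exceeded the mean and 4 were below it. The shares over all genes were 18.5% and 17.2%. Without Achilles 1, 7 of the markers exceeded the mean. The summed share of this list was 0.0824, 1.41, 0.362 and 1.40% in Achilles 1 to 4, against 1.12 to 4.10% in flexor, 0.0772 to 1.72% in patellar and 7.57 to 12.1% in supraspinatus libraries.

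**Figure D5:**
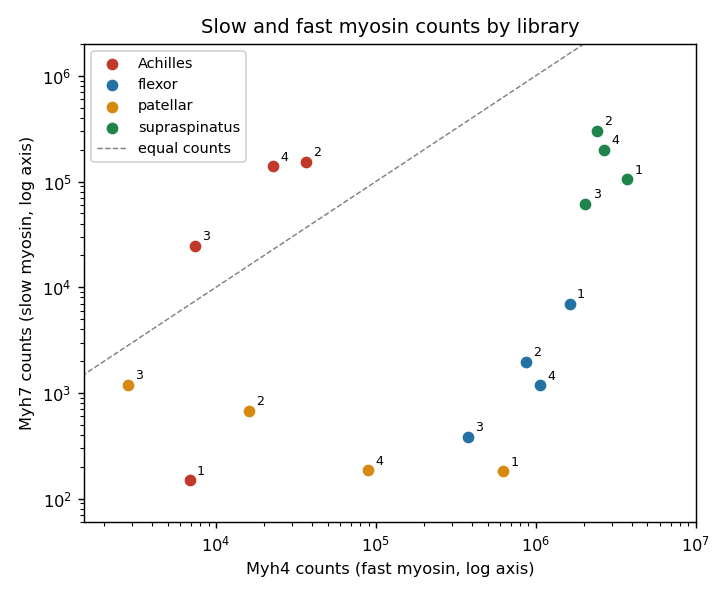
Counts of the slow myosin gene Myh7 (vertical, log axis) against the fast myosin gene Myh4 (horizontal, log axis) in each of the 16 libraries, numbered by replicate and coloured by tendon. Achilles 2, 3 and 4 lie above the line of equal counts, and Achilles 1 lies below it with 150 Myh7 counts.

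Of 16 tendon fibroblast genes, 2 were higher and 2 lower than the mean, where 18.5% and 17.2% of all genes were. None of the 16 was called against each tendon. Without Achilles 1, 3 were higher and 2 lower. Against the patellar tendon 3 were higher and 0 lower by edgeR, with a median of 0.59. In that pair 3.1% of all genes were higher and 2.06% lower. Without Achilles 1, 5 were higher than in patellar tendon. The number lower than in patellar tendon was 0 also at an unadjusted p under 0.05, by DESeq2 and by limma-voom. Scx, the early tendon transcription factor, had 5.67, 25.4, 26.7 and 86.4 CPM in the Achilles against 10.8 to 67.7 CPM in the other 12, a difference from the mean of 0.27 ± 0.48 (adjusted p = 0.69). Tnmd, a membrane glycoprotein of mature tendon cells, had 195, 597, 413 and 935 CPM in the Achilles against 238 to 1054 CPM. Mkx, a factor that keeps the tendon programme, had 10.1, 39.9, 27.7 and 46.6 CPM against 18.7 to 44.8 CPM. In all 3 genes Achilles 1 was the lowest of the 16 libraries. Col1a1, the main collagen of tendon, had 57082 to 117328 CPM in the Achilles, against 17206 to 29049 CPM in flexor, 47099 to 101367 CPM in patellar and 26737 to 55429 CPM in supraspinatus libraries, a difference from the mean of 1.06 ± 0.25 (adjusted p = 0.0055) and from patellar of 0.24 ± 0.33 (adjusted p = 0.71).

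Genes of other cell types moved with the tendon and, in part, with Achilles 1. Of 19 adipocyte genes, 17 were higher than the mean, with a median of 2.51, where 18.5% of all genes were higher. Against the patellar tendon 0 were called in either direction by edgeR, where 3.1% of all genes were higher and 2.06% lower. At an unadjusted p under 0.05 by edgeR, 1 was higher and 1 lower. By DESeq2 1 was higher, and by limma-voom 1 was lower. Adipoq, the fat hormone adiponectin, had 2118, 1074, 1359 and 647 CPM in the Achilles against 963 to 2409 CPM in patellar and 3.14 to 173 CPM in flexor and supraspinatus libraries. Of 15 Schwann cell and nerve genes, 13 were higher than the mean with Achilles 1 and 2 without it. The shares of all genes higher were 18.5% with it and 13.7% without it. Mbp, a protein of the myelin sheath, had 1107, 88.4, 79.1 and 65.1 CPM in Achilles 1 to 4, against 167 to 448 CPM in flexor, 40.8 to 117 CPM in patellar and 5.71 to 7.91 CPM in supraspinatus libraries. Its difference from the mean was 2.64 ± 0.55 (adjusted p = 0.0024) with Achilles 1 and 0.53 (adjusted p = 0.19) without it. Of 12 keratinocyte genes, 6 were higher than the mean with Achilles 1 and 1 without it, beside the same shares of all genes.

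A call in all 3 pairs and separation on both scales held for 104 genes above and 17 below. The rule for named genes further required a symbol and a mean of at least 5 CPM, and 70 genes met it above and 7 below. A further 11 and 3 met it only without Achilles 1. Besides Bglap, Sdc1, Actn3 and Pvalb these included Mmrn1, Slc17a9 and Galnt15. Slc17a9, a vesicle transporter of nucleotides, had 22.9, 53.4, 37.0 and 63.1 CPM in the Achilles against 11.8 to 24.2 CPM in the other 12. Mmrn1, a large secreted glycoprotein of vessels and platelets, had 99.7, 117, 113 and 139 CPM against 34.5 to 103 CPM. In both, Achilles 1 lay below the highest supraspinatus library and the other 3 above it, and on plain totals all 4 lay above. Galnt15, which starts O-linked glycosylation, had 25.2 to 30.1 CPM in the Achilles against 34.9 to 132 CPM in the other 12, separated on the TMM scale in all 4 libraries and on plain totals in Achilles 2 to 4 alone. The call against each tendon was lost without any of 12 libraries for Slc17a9 (0.053 to 0.12) and Mmrn1 (0.0506 to 0.107), and without any of 5 for Galnt15 (0.059 to 0.085).

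Genes whose levels ran most like Isl1 across the 16 libraries were described by Pearson's r of log2 CPM among 13446 genes. The points share their tendon, library and depth, so r is a description. Ucma came first at 0.93, followed by Cdk5rap3 at 0.89, Gtf2f1 at 0.88, Ssr3 at 0.88 and Rpa2 at 0.87. Ucma is the one with a large difference. Cdk5rap3, a partner of the enzyme that attaches the modifier UFM1, had 115 to 129 CPM in the Achilles against 82.9 to 97.1 CPM in the other 12. Gtf2f1, a subunit of the basal transcription factor TFIIF, had 57.9 to 61.7 CPM against 37.6 to 46.5 CPM. Ssr3, a subunit of the translocon-associated protein complex, had 367 to 415 CPM against 240.2 to 325 CPM, and Rpa2, which binds single-stranded DNA, had 28.6 to 32.8 CPM against 19.9 to 26.4 CPM. All 4 were separated from the 12 others by less than 1 on the log2 scale.

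The authors' deposited table gives their own tests of Achilles against each tendon for 12588 genes. Its log2 differences lay closer to the fit without Achilles 1 than to any of 24 fits that include it. The median absolute difference between the authors' deposited table and the fit without Achilles 1 was 0.050 for the flexor pair, 0.0067 for the patellar pair and 0.0038 for the supraspinatus pair. With all 16 libraries the median distance from the authors' deposited table was 0.078, 0.068 and 0.068 for the same pairs. The labels used here do not say whether a library was left out of that table, so its calls and those from all 16 libraries may rest on unlike samples. In the authors' deposited table, 119 genes were higher and 27 lower in the Achilles in all 3 pairs at an FDR under 0.05. Of the genes called in all 3 pairs here, 108 higher and 35 lower are listed in the authors' deposited table, and 92 and 17 are called in it. Of those called in all 3 pairs without Achilles 1, 98 higher and 28 lower are listed in the authors' deposited table, and 98 and 26 are called in it. All 14 separated genes above are called in the authors' deposited table in all 3 pairs, as are Tbx5, Nox4, Gpt2 and Ppid. That table rests on the same series, and these genes were chosen here for being called in all 3 pairs. The overlap is therefore no separate check. For Pcsk5, Setd7 and Dync1h1 the authors' deposited table gives a patellar FDR of 0.060, 0.067 and 0.091, and the largest adjusted p of the 3 pairs by edgeR here was 0.062, 0.073 and 0.091 without Achilles 1 and 0.036, 0.042 and 0.046 with it. When the 12 other libraries were fitted as 1 group, 11 of the 14 genes above and 5 of the 7 below stayed called. Lamc3, Gpm6b, Mmp3, Ppid and Gpt2 did not (adjusted p of 0.059 to 0.12). Of the other genes described as called in all 3 pairs, Hoxc11, Lhx9, Mmp10, Lgr5, Aldh1a2, Mcm5, Actn3, Mybpc2, Mmrn1 and Galnt15 were not called in that fit either (0.051 to 0.14). In it the differences among the 3 other tendons count as spread.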

How the data were processed

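Total RNA of 4 rat tendons was sequenced, 4 libraries each, after miRNeasy Micro purification with DNase I, per the labels' protocols. Per the submitters' processing notes, FastQC, HISAT2 and edgeR were used on build rn6, with versions not stated. How reads were counted, on which annotation and with what use of strand is not given in the sources used here, so antisense and overlapping genes may share reads. The deposited table holds raw counts per gene and library. The authors' deposited edgeR table gives log2 fold changes and FDR-adjusted p-values for pairs of tendons, by a fit that is not described there. Its log2 fold changes lie closer to those fitted here without Achilles 1 than to those fitted with it.

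Low genes were removed by filterByExpr (minimum count 10, minimum total 15). Counts were scaled by TMM and fitted in edgeR 4.0.16 (R 4.3.3) with 1 coefficient per tendon and 12 residual degrees of freedom. The Achilles was contrasted with the mean of the 3 other tendons, each of equal weight, and with each tendon, with Benjamini-Hochberg adjustment within each contrast over all genes tested. Standard errors are the absolute log2 fold change divided by √F. The script was tested on simulated data. At these totals a library's floor of 3 counts is 0.0293 to 0.0473 CPM of plain totals.

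Separated genes were named if they had a symbol (clone, LOC, RGD and Mir names left out), were called in all 3 pairs, did not overlap on either scale and averaged 5 CPM or more in the Achilles (higher) or in each other tendon (lower), up to 14 per direction by the difference from the nearest tendon. Up to 4 called genes per list could be named, and only part of them are. The genes Isl1, Tbx4, Tbx5, Pitx1, Hoxc10, Scx, Tnmd, Mkx and Col1a1 were named whatever their outcome. Emx2, Osr2, Mmp10, Pcolce, Mcm2, Mcm4 and Pcna were chosen after their values were seen, as were the genes at the edge of the separation. Of 815 symbols in 32 gene lists, 775 were found in the count table, 8 of them through a RefSeq synonym. The members and lists were chosen with earlier results of these data known. Gene promoters come from RefSeq build GRCr8, whose coordinates are not those of the count table.

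Alternatives were DESeq2 size factors, plain library totals, DESeq2 1.42.0, limma-voom (limma 3.58.1), no filter, 1 CPM in 4 libraries, a replicate block, muscle markers as a covariate, the 12 other libraries as 1 group and each library left out. A fit without Achilles 1 and patellar 1 was added after the data were seen. Figures used Python 3.11.15 and matplotlib 3.10.9.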

Additional observations from a re-analysis of the deposited data

Results flagged for a closer look

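Within each tendon, a library was singled out where its gap to the nearest of the other 3 exceeded Dixon's critical share of the whole range. Chance alone singles out about 1 in 20 such groups, and 264 gene groups and 60 groups of marker shares were examined. The number singled out was 17, of which 13 were gene groups, so about as many as chance gives.

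In Achilles 1, Isl1 was low at 12.8 CPM, with the next at 22.8 CPM. In the same library Mbp was high at 1107 CPM, and the share of Schwann cell and nerve markers was 0.933%, with the next at 0.165%. In Achilles 4, Cdk5rap3 was low at 115 CPM, with the next at 128 CPM. Patellar 2 had 0.808 CPM of Isl1, with the next patellar library at 0.0509 CPM.

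Patellar 1 was high for the muscle genes Mybpc2 at 796 CPM, Actn3 at 1407 CPM and Myh4 at 7636 CPM. Its shares were 2.27% for fast muscle, 1.72% for slow and general muscle and 0.00672% for satellite cell markers. It was also high for Lbp, at 53.2 CPM, and low for Tbx5, at 1.06 CPM. The Achilles remained above it for Lbp and below it for Tbx5.

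Patellar 4 was high for Tmem119 at 65.8 CPM, flexor 3 was high for Tbx5 at 39.4 CPM, and supraspinatus 4 was high for Mbp at 7.91 CPM and low for Mcm4 at 17.3 CPM.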

How the results depend on the processing

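Genes higher and lower in the Achilles than the mean of the other tendons numbered 3134 and 2912, against 4817 and 1769 with plain library totals, 1458 and 1068 with muscle markers as a covariate and 125 and 25 with the 12 other libraries as 1 group. Leaving out 1 library gave 2347 to 3319 and 1964 to 3089. Genes higher than each tendon numbered 131, against 252 with DESeq2 and 50 with the muscle covariate, and 59 to 154 with 1 library left out. Genes lower than each numbered 40, against 23 with library totals, 103 with DESeq2, 26 with limma-voom, 26 without a filter and 24 with the muscle covariate, and 11 to 62 with 1 library left out. Genes above all 12 libraries numbered 239, and 477 without both Achilles 1 and patellar 1, with 247 to 465 when 1 library was left out. Genes below numbered 91, against 44 with library totals and 216 without both, with 84 to 195 when 1 was left out. The left-out counts use scaling refitted without that library. The cause of these shifts was not tested, except that fewer libraries relax the separation rule.

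Of 1713 log2 differences of 66 named genes under 26 alternatives, 1658 kept direction and side of the threshold and 7 changed sign. These were Tnmd without Achilles 4 (-0.21), Scx with limma-voom (-0.27), the replicate block (-0.041) and without Achilles 4 (-0.63), Mkx with limma-voom (-0.060) and without Achilles 4 (-0.11), and Myl2 with the 12 libraries as 1 group (-0.17). With 1 library left out, Tnmd ranged to 0.48, Scx to 0.63 and Mkx to 0.44. The fit with the 12 other libraries as 1 group ended the call of 32 genes, and muscle markers as a covariate that of 6.

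Same-numbered libraries of different tendons had a mean correlation of deviations of 0.0527 (-0.148 to 0.312), other pairs -0.0173, and 6 of 16 libraries correlated best with their own number, so the numbers were not taken to pair the libraries. With the replicate block, 2974 genes were higher and 2972 lower than the mean, 116 and 39 than each tendon, and Myh7 and Myl2 were no longer called.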

Other observations

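Against the patellar tendon 0 of 17 endothelial genes were called in either direction. In that pair 3.1% of all genes were higher and 2.06% lower, so this 0 is near the share over all genes. Part of the mast cell and granulocyte genes were lower in it. Of 17 endothelial genes, 8 were higher than the mean of the other tendons, or 7 without Achilles 1. The shares over all genes were 18.5% and 13.7%. In the flexor pair 13 of the 17 were higher, where 23.5% of all genes were. Their median against patellar was -0.34. Of 15 mast cell and granulocyte genes, 6 were higher than the mean, or 4 without Achilles 1. In the supraspinatus pair 13 were higher, where 25.4% of all genes were. In the patellar pair 2 were lower with Achilles 1 and 7 without it, where 2.06% and 2.13% of all genes were. The summed share of these 15 genes and others of their list was 0.0112 to 0.0261% in the Achilles. It was 0.00816 to 0.0192% in flexor, 0.0281 to 0.0522% in patellar and 0.00200 to 0.00268% in supraspinatus libraries.

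Of 18 core clock genes, 6 were lower in the Achilles than the mean and 12 lower than in flexor, or 5 and 11 without Achilles 1. The shares over all genes were 17.2% and 24.1% with all libraries. Against the patellar tendon 0 clock genes were called by edgeR, DESeq2 or limma-voom, with 3 higher at an unadjusted p under 0.05. By edgeR 3.1% of all genes were higher and 2.06% lower in that pair. The labels used here give no time of collection. Of 14 Hedgehog pathway genes, 9 were lower in the Achilles than in flexor and 2 higher than in patellar, or 10 and 1 without Achilles 1. The shares over all genes were 24.1% and 3.1% with all libraries. Prg4, the lubricin of gliding surfaces, had 995, 1278, 2032 and 795 CPM in the Achilles, against 1041 to 1571 CPM in flexor, 64.5 to 162 CPM in patellar and 658 to 973 CPM in supraspinatus libraries. It was 3.63 ± 0.33 higher than in patellar tendon (adjusted p = 6.7e-05) and 0.03 from flexor (adjusted p = 0.94).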
